A study of Homo sapiens with 10 samples.

Results

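Glutathione S-transferases (GSTs) join glutathione to electrophilic compounds. The 10 genes described here are GSTP1, GSTO1, GSTK1, GSTA4, GSTM2, GSTM3, GSTM4, GSTZ1, MGST1 and MGST3, chosen by name from this gene family and matched to the count tables by Ensembl identifier. All 10 have a row among the 61533 genes of the tables, and all 10 were among the 16181 genes with enough counts to be tested. Of these GST genes, 4 were higher in cisplatin-resistant cells (GSTM4, GSTK1, MGST1 and GSTM3) and 2 were lower (GSTO1 and GSTZ1). The other 4 were not called (GSTP1, MGST3, GSTA4 and GSTM2). By the same rule, 24.9% of all tested genes were higher and 26.5% lower.

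The libraries were RNA-seq libraries of 2 human bladder cancer cell lines. T24 is the cisplatin-sensitive parent, and T24R2 is the resistant line derived from it by serial exposure to cisplatin, a platinum drug that damages DNA. There were 5 replicates of each line, all from day 3 of culture. The comparison asks which GST mRNAs differ between the sensitive and the resistant line. The study's methods state that T24R2 is kept in medium with cisplatin, whereas the sample labels list the same serum-supplemented RPMI medium without drug for both lines, so the line and the presence of the drug cannot be told apart. Only 1 resistant line was sequenced, so values describe that line and not resistant cells in general. Nothing in the labels says that the replicates came from separate cultures, and p-values then measure only the spread between these libraries, which may be technical. In bulk libraries, fewer cells expressing a gene and less mRNA per cell cannot be told apart.

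The thiol of glutathione is the cell's main small nucleophile, and GST enzymes lower the barrier to its attack on drugs, oxidized lipids and other reactive molecules. The family holds soluble classes named by Greek letters, among them alpha, mu, pi, omega and zeta. It also holds a kappa class of mitochondria and peroxisomes, and membrane-bound enzymes of the MAPEG superfamily. The conjugates leave the cell through transporters of the ABCC family. Platinum drugs bind glutathione, and GST proteins are widely studied in drug-resistant tumours.

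Total counts per library were 9257843 to 10840954, and all 20 pairs of libraries within a line differed beyond the noise of sampling (1.99 to 6.51 chi-square units for each degree of freedom). Levels are given as CPM, counts scaled to library size after TMM correction for library composition, and means are given ± SD of 5 libraries. The lines were compared gene by gene with edgeR's quasi-likelihood test, its p-values were adjusted over all tested genes (Benjamini-Hochberg), and a gene was called where the adjusted p was below 0.05 and the log2 fold change exceeded 0.5 in either direction. Among all tested genes, 24.9% were called higher and 26.5% lower in T24R2, so that being called was common, and the 4 and 2 of 10 GST genes are to be read against these shares. Libraries of the lines did not overlap for 7 of the 10 genes, beside 61.2% of all tested genes. The median log2 fold change of the 10 was 0.43, beside 0.015 over all tested genes. This median lies between the values of GSTA4 (0.387) and GSTM2 (0.469), which had few counts and were not called, so it does not show a shift of the whole family. Of 16 urothelial and epithelial marker genes, 9 were tested and all 9 were lower in T24R2 (8 with scaling by library size alone, where KRT8 was not called), with a summed level of 5010 to 5744 CPM in T24 and 3028 to 3232 CPM in T24R2. KRT7 was the highest marker in both lines, at 2242 CPM in T24 and 1370 CPM in T24R2, whereas KRT20 was at 0 and CDH1 reached at most 2 counts in any library. Endothelial markers summed to 225.4 to 277.5 CPM in T24, nearly all of it CDH5, and to 1.604 to 2.495 CPM in T24R2. Fibroblast markers summed to 9.072 to 11.21 CPM in T24 and 0.9536 to 2.294 CPM in T24R2, and leukocyte markers to at most 1.788 CPM in any library. The part of these markers in the GST values was not tested.

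GSTP1, the only pi-class enzyme and the one most often studied in platinum resistance, was by far the most abundant of the 10 (ENSG00000084207.18, chromosome 11 of hg38, 67583742 to 67586656, plus strand). Replicates 1 to 5 of T24 held 486.9, 483.8, 458.8, 452.1 and 441.1 CPM, and those of T24R2 held 458.6, 469.4, 540.5, 482.0 and 461.6 CPM. The ranges overlapped. The means were 464.5 ± 20.06 and 482.4 ± 33.72 CPM, and the log2 fold change was 0.054 (standard error 0.045, 95% interval -0.037 to 0.146, adjusted p = 0.277 by edgeR's quasi-likelihood test). With 4015 to 5632 counts per library GSTP1 had the smallest standard error of the 10 genes, and its interval lay wholly within the minimum of 0.5 in either direction. The exact two-sided permutation test gave p = 0.373 (n = 5 per line). Without T24R2 replicate 3, the highest library, the log2 fold change was 0.015.

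GSTO1 had the largest fall of the 10 listed genes. This omega-class enzyme has a cysteine in its active site and works more as a reductase of dehydroascorbate and of protein-bound glutathione than as a conjugating enzyme (ENSG00000148834.13, chromosome 10, 104235356 to 104267459, plus strand). Its levels were 132.6, 136.6, 123.1, 136.0 and 139.9 CPM in T24 and 54.04, 49.67, 43.19, 55.6 and 48.48 CPM in T24R2. Every T24R2 library lay far below every T24 library. The mean fell from 133.6 ± 6.431 to 50.2 ± 4.907 CPM, to 37.57% of T24 (log2 fold change -1.41, standard error 0.059, adjusted p = 2.1e-23 by edgeR's quasi-likelihood test). The ratio of GSTO1 to GSTP1 counts within a library, which no scaling can alter, was 0.2881 ± 0.02046 in T24 and 0.1048 ± 0.01502 in T24R2. It differed between the lines (p = 0.00794 by exact two-sided permutation, as small as 5 against 5 allows, adjusted p = 0.0132 over 5 ratios that were chosen after the values were seen). GSTO2, the other omega gene, named after its values were seen, was lower as well, at 7.074 ± 0.8943 CPM in T24 and 1.546 ± 0.7442 CPM in T24R2 (log2 fold change -2.18, edgeR adjusted p = 1.2e-10). The ratio of GSTO1 to GSTO2 was 19.1 ± 2.354 in T24 and 43.96 ± 32.36 in T24R2, a difference that did not pass adjustment over the 5 ratios (exact permutation p = 0.0476, adjusted p = 0.0595). GSTO2 had 6 to 27 counts per T24R2 library, so this ratio is imprecise there.

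**Figure D1:**
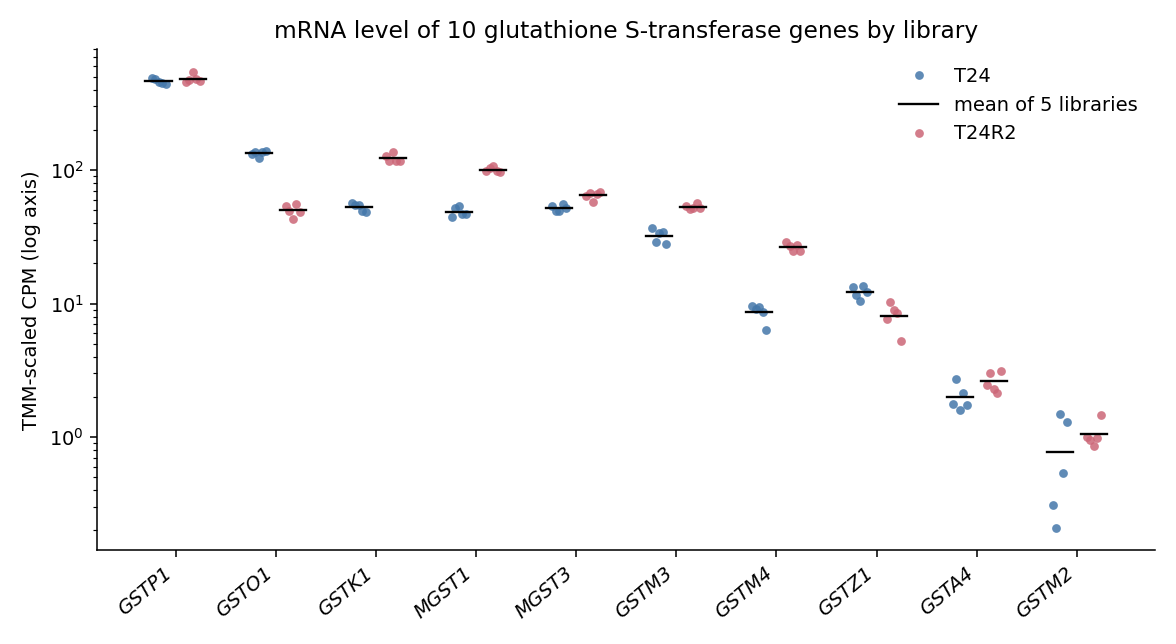
The mRNA level of each of the 10 GST genes in TMM-scaled CPM on a log axis, with a point for every library (T24 in blue, T24R2 in red) and a bar at the mean of 5 libraries. GSTP1 sits at 441.1 to 540.5 CPM in both lines, GSTO1 drops from 123.1 to 139.9 CPM to 43.19 to 55.6 CPM, and GSTA4 and GSTM2 lie low with overlapping libraries.

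The stretch just upstream of the RefSeq transcription start of GSTP1, GSTO1 and GSTA4 holds a sequence of the kind bound by NRF2 and its small MAF partners, the antioxidant response element core TGACNNNGC (N is any base), which is a known control element of GST genes. These stretches are shown to let the core be seen, and whether it acts in these cells was not tested. They are the plus strand upstream of GSTP1 (chr11:67583712-67583811) and of GSTO1 (chr10:104254652-104254751) and the minus strand upstream of GSTA4 (chr6:52995285-52995344), read 5′ to 3′ from RefSeq on GRCh38.p14, with the core in capitals. The gene bounds printed here are those of the count tables and reach to the outermost annotated isoform, so each of these cores lies inside them.
GSTP1: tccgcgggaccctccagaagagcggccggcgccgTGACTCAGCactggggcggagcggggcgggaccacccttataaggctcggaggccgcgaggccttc
GSTO1: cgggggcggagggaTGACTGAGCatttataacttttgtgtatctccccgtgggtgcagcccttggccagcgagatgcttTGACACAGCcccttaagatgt
GSTA4: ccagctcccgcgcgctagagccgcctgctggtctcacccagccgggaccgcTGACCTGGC
The first base of the core lay at -66 from the start in GSTP1, at -226 and -161 in GSTO1, and at -9 in GSTA4. MGST1 held a match at +31, in 1 of its windows. All 10 genes have a promoter in the RefSeq table, in 12 windows that run from 250 bases before to 50 bases after a start, and both strands were searched. The core was found in 4 of the 10 genes, beside 16.1% of 27305 genes and 13.3% of 35116 windows. The AP-1 site TGAGTCA was found in GSTP1 alone among the 10, on the minus strand and inside the same core, beside 6.05% of all genes. Of the 4 genes with the core, MGST1 was called higher, GSTO1 lower, and GSTP1 and GSTA4 were not called. A match is only a run of letters in a window and not a site shown to be used.

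GSTK1, the kappa-class enzyme of mitochondria and peroxisomes, more than doubled (ENSG00000197448.14, chromosome 7, 143244093 to 143270854, plus strand). T24 libraries held 57.09, 54.49, 54.96, 49.26 and 48.28 CPM, and T24R2 libraries 128.5, 117.6, 135.8, 117.3 and 117.8 CPM. The lines were well apart, with the lowest T24R2 library above the highest T24 library. The mean was 52.82 ± 3.836 CPM in T24 and 123.4 ± 8.407 CPM in T24R2, a 2.336-fold rise (log2 fold change 1.22, standard error 0.058, adjusted p = 1.8e-21 by edgeR's quasi-likelihood test).

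GSTZ1, the zeta-class enzyme, acts as maleylacetoacetate isomerase in the breakdown of tyrosine and also dechlorinates dichloroacetate (ENSG00000100577.19, chromosome 14, 77320996 to 77331597, plus strand). Its levels were 13.39, 11.68, 10.4, 13.55 and 12.2 CPM in T24 and 7.616, 10.32, 8.926, 8.554 and 5.212 CPM in T24R2. The nearest libraries, at 10.4 and 10.32 CPM, almost touched. The mean fell from 12.24 ± 1.299 to 8.124 ± 1.896 CPM (log2 fold change -0.59, standard error 0.142, adjusted p = 0.00033 by edgeR's quasi-likelihood test). GSTZ1 lost its call without T24R2 replicate 5 (log2 fold change -0.46, edgeR adjusted p = 0.00257) and when counts were scaled by library size alone (-0.42, edgeR adjusted p = 0.00763), in both cases because the size of the change passed under 0.5.

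GSTA4, the alpha-class enzyme that conjugates the lipid peroxidation product 4-hydroxynonenal, was read from 14 to 26 counts per T24 library and 24 to 35 per T24R2 library (ENSG00000170899.11, chromosome 6, 52977948 to 52995304, minus strand). The values were 1.764, 2.735, 1.6, 2.151 and 1.728 CPM in T24 and 2.477, 3.034, 2.303, 2.138 and 3.147 CPM in T24R2. The ranges overlapped, and T24R2 lay higher on average. The log2 fold change of 0.39 (standard error 0.259, 95% interval -0.138 to 0.912, edgeR adjusted p = 0.174) was not detectable as a difference at this depth, and the exact two-sided permutation test gave p = 0.0794 (n = 5 per line). The other alpha genes GSTA1, GSTA2, GSTA3 and GSTA5 had 0 counts in all 10 libraries. In a library of 9257843 counts, a count of 0 allows up to 3 counts.

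The mu-class genes lie in a row on chromosome 1, and their mRNAs resemble each other closely, which matters for how fragments are assigned. GSTM4 (ENSG00000168765.18, 109656099 to 109674836), GSTM2 (ENSG00000213366.13, 109668022 to 109709551), GSTM1 and GSTM5 are read from the plus strand, and GSTM3 (ENSG00000134202.12, 109733932 to 109741038) from the minus strand. The first 90 coding bases of the Ensembl canonical transcripts (GENCODE release 44) are shown for GSTM2, GSTM1 and GSTM4 to let their likeness be seen. Capitals mark bases that differ from GSTM2.
GSTM2: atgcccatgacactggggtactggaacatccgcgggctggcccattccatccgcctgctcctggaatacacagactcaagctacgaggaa
GSTM1: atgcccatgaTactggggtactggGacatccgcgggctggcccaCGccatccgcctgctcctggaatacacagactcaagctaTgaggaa
GSTM4: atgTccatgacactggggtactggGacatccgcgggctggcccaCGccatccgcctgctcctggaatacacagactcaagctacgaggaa
GSTM1 differed at 5 and GSTM4 at 4 of these 90 bases. Over the whole coding sequence, GSTM1 and GSTM4 were identical at 92.1% of aligned bases, GSTM1 and GSTM2 at 90% and GSTM2 and GSTM4 at 89%, whereas GSTM3 matched the others at 69.9% to 72.6%. Of all 50-base stretches of the canonical transcript, 46.1% in GSTM2, 58.3% in GSTM1 and 18.9% in GSTM4 occur exactly in a transcript of another gene, against 2.01% in GSTM3, 4.06% in GSTO1 and 0% in the other 6 listed genes. For stretches of 100 bases the shares were 37% in GSTM2, 37.9% in GSTM1, 4.56% in GSTM4 and 0% in GSTM3 and GSTO1. Only uniquely mapped reads were kept, so fragments from such stretches are missing or rest on neighbouring bases. The study's paired reads were longer than these stretches, and shares at read length were not computed. In the tables, GSTM2 also shares 559 exon bases with GSTM1 and 90 with GSTM4 on the same strand, 7.12% of its exon bases, and a fragment that touches both genes there was not assigned. The levels of GSTM2 and GSTM1, and to a smaller extent GSTM4, are therefore uncertain as to gene.

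**Figure D2:**
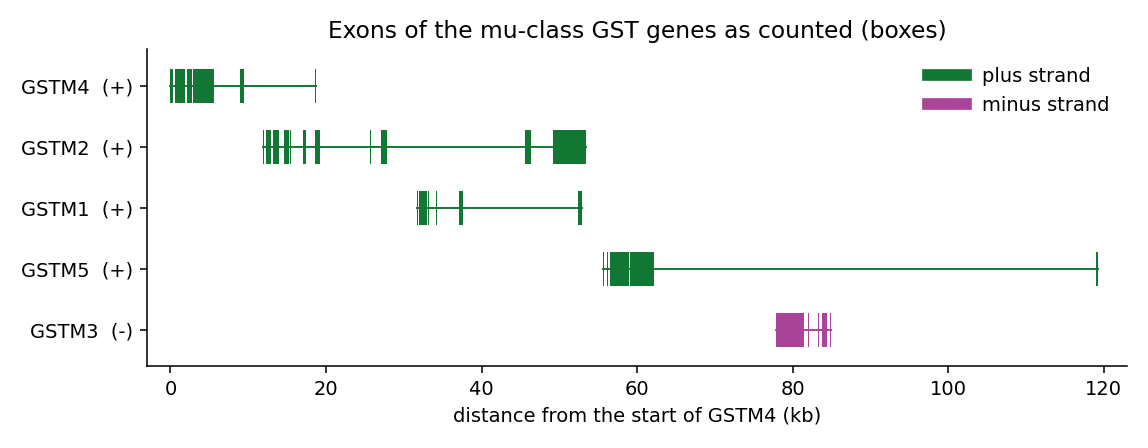
Exons of the mu-class GST genes as counted, drawn as boxes against the distance in kb from the start of GSTM4, with plus-strand genes in green and the minus-strand gene in purple. GSTM2 runs across the end of GSTM4 and across GSTM1, with which it shares 90 and 559 exon bases, and GSTM3 lies apart on the minus strand.

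GSTM4 had the largest rise of the 10 genes. Its levels were 9.653, 9.047, 9.37, 8.712 and 6.372 CPM in T24 and 28.72, 26.79, 24.57, 27.44 and 24.78 CPM in T24R2. All T24R2 libraries exceeded all T24 libraries. The mean rose 3.066-fold, from 8.631 ± 1.311 to 26.46 ± 1.773 CPM (log2 fold change 1.62, standard error 0.108, adjusted p = 1.1e-16 by edgeR's quasi-likelihood test).

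GSTM3, a mu enzyme best known from brain and testis, was the most abundant mu gene by CPM. T24 libraries held 36.95, 29.04, 33.59, 34.31 and 27.87 CPM, and T24R2 libraries 53.68, 51.41, 51.83, 56.22 and 51.82 CPM. Both sets were tight and did not overlap. The mean rose from 32.35 ± 3.796 to 52.99 ± 2.009 CPM (log2 fold change 0.71, standard error 0.073, adjusted p = 2.2e-11 by edgeR's quasi-likelihood test). Of the 10 genes, GSTM3 alone overlaps exons of an opposite-strand gene, ENSG00000241720.2, over 202 bases or 4.25% of its exon bases. That gene rose too, from a mean of 69.2 to 148 counts. After every one of its counts was taken off GSTM3, the log2 ratio of mean CPM was 0.66, against 0.71 before.

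GSTM2, a mu enzyme of muscle and brain, was close to the limit of detection, with 2 to 13 counts per T24 library and 9 to 15 per T24R2 library. Its values were 0.3114, 0.2104, 1.485, 0.5378 and 1.296 CPM in T24 and 1.009, 0.9536, 0.8638, 0.9801 and 1.475 CPM in T24R2. The T24 libraries spanned the whole range of T24R2. The log2 fold change of 0.47 had an interval from -0.365 to 1.304 (standard error 0.412, edgeR adjusted p = 0.303, exact two-sided permutation p = 0.325), so a doubling could not be told from no change. Leaving out 1 library moved this value between 0.224 (without T24 replicate 2) and 0.83 (without T24 replicate 3), and it was 0.262 without T24 replicate 1 and 0.743 without T24 replicate 5.

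GSTM1, a mu gene that many people lack, was counted at 8.092 ± 2.096 CPM in T24 and 24.47 ± 3.306 CPM in T24R2, a log2 fold change of 1.60 (standard error 0.129, edgeR adjusted p = 3.1e-14). The ratio of GSTM4 to GSTM1 counts was 1.108 ± 0.2676 in T24 and 1.097 ± 0.1665 in T24R2 (exact two-sided permutation p = 0.992, n = 5 per line). The ratio of GSTM4 to GSTM3 went from 0.2669 ± 0.03083 to 0.4993 ± 0.0272, with no overlap between the lines (exact permutation p = 0.00794, adjusted p = 0.0132 over the 5 ratios). The change of GSTM4 was thus larger than that of GSTM3, in a ratio chosen after the values of both genes were seen. Summed over GSTM1 to GSTM5, so that the split of fragments among these genes does not matter, the mu genes rose from 49.9 ± 4.972 to 105.0 ± 4.591 CPM (log2 fold change 1.08, standard error 0.061, edgeR adjusted p = 3.8e-19). Fragments dropped as not unique, or shared with the pseudogene GSTM2P1, stay outside this sum.

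MGST1 is a trimeric enzyme of the endoplasmic reticulum and the outer mitochondrial membrane, with glutathione peroxidase activity toward lipid hydroperoxides (ENSG00000008394.13, chromosome 12, 16347142 to 16609259, plus strand). T24 libraries held 44.84, 51.76, 53.93, 47.11 and 46.66 CPM, and T24R2 libraries 99.09, 103.1, 106.9, 98.37 and 96.56 CPM. No libraries overlapped. The mean rose 2.063-fold, from 48.86 ± 3.815 to 100.8 ± 4.164 CPM (log2 fold change 1.05, standard error 0.058, adjusted p = 2.9e-19 by edgeR's quasi-likelihood test).

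MGST3, a membrane enzyme of the same superfamily with peroxidase and leukotriene C4 synthase activity, differed less (ENSG00000143198.13, chromosome 1, 165631213 to 165661796, plus strand). Its levels were 53.87, 49.34, 49.48, 56.04 and 51.73 CPM in T24 and 64.23, 67.36, 57.78, 66.47 and 67.95 CPM in T24R2. The libraries did not overlap, but the difference was small. The log2 fold change was 0.31 (standard error 0.061, 95% interval 0.19 to 0.438, edgeR adjusted p = 1.8e-05), which is under the minimum of 0.5, so MGST3 was not called although its difference exceeded the spread between libraries. The ratio of MGST1 to MGST3 counts was 0.9428 ± 0.1197 in T24 and 1.565 ± 0.1667 in T24R2, without overlap of the lines (p = 0.00794 by exact two-sided permutation, adjusted p = 0.0132 over the 5 ratios). This ratio too was chosen after the values were seen.

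**Figure D3:**
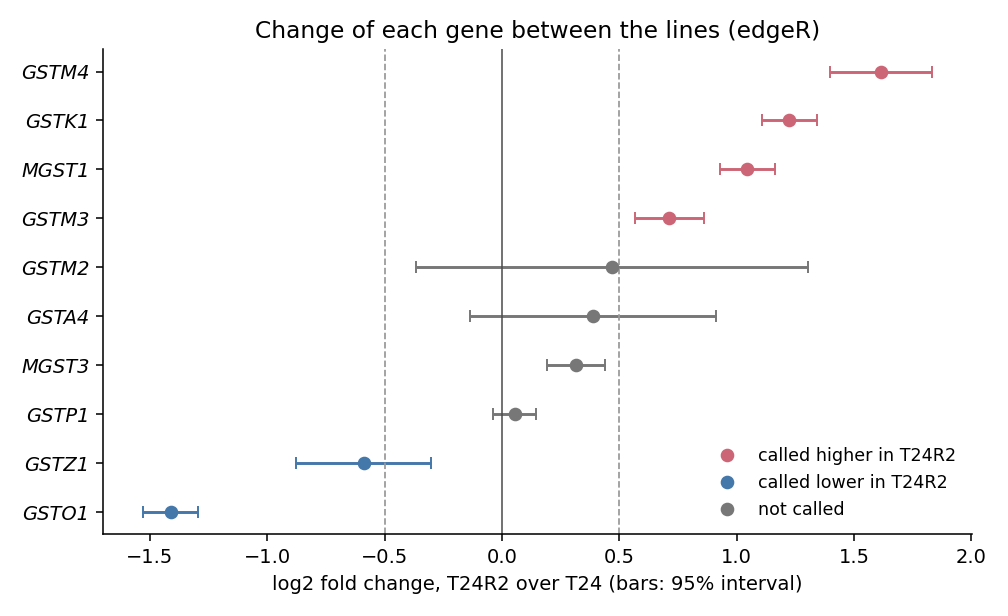
The log2 fold change of each GST gene, T24R2 over T24, from edgeR, with bars for the 95% interval and dashed lines at the minimum of 0.5 in each direction. GSTM4, GSTK1, MGST1 and GSTM3 lie to the right of the dashed line, GSTO1 and GSTZ1 to the left, and the intervals of GSTA4 and GSTM2 are the widest.

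The order of the 10 genes within a line was compared per kilobase of the exon length in the tables. In T24 it ran GSTP1 (263.3 CPM per kilobase), GSTO1 (79.02), GSTK1 (12.53), GSTM3 (6.811), MGST1 (6.566), MGST3 (6.469), GSTM4 (1.586), GSTZ1 (1.464), GSTA4 (0.9499) and GSTM2 (0.08427). The libraries of GSTM3, MGST1 and MGST3 overlapped there, as did GSTM4 with GSTZ1 and GSTZ1 with GSTA4. In T24R2, GSTP1 stayed first (273.5 CPM per kilobase), and GSTO1 (29.68) and GSTK1 (29.28) came next with overlapping libraries. MGST1 (13.55), GSTM3 (11.16), MGST3 (8.042) and GSTM4 (4.862) followed without overlap, then GSTA4 (1.247) and GSTZ1 (0.9712), which overlapped, and GSTM2 (0.1159). The exon length in the tables joins all annotated isoforms. By the length of the canonical transcript, an alternative chosen after seeing the data, GSTP1 was still first and GSTM2 last in both lines, but MGST1 moved to the third place in T24. In T24R2 GSTO1 then stood at 61.74 CPM per kilobase, below GSTK1 (119.5) and MGST1 (109.0) with no overlap, and GSTM4 (18.98) came before GSTM3 (12.86), so the places of these genes depend on the length used.

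Summed over the 10 genes, GST mRNA was 807.9 ± 24.71 CPM in T24 and 912.8 ± 35.87 CPM in T24R2, a ratio of 1.13, and the ranges of 777.1 to 837.4 and 878.8 to 972.7 CPM did not overlap. Without GSTP1, the sum was 343.4 ± 6.234 CPM in T24 and 430.4 ± 8.114 CPM in T24R2, a ratio of 1.253. The make-up of the sum moved more than its size. GSTP1 gave 57.48% ± 0.82 of the summed CPM in T24 and 52.81% ± 1.668 in T24R2. GSTO1 went from 16.55% ± 1.003 to 5.515% ± 0.6565, while GSTK1 went from 6.533% ± 0.3385 to 13.51% ± 0.6183 and MGST1 from 6.053% ± 0.5167 to 11.04% ± 0.2569. GSTO1 was the second contributor in all T24 libraries, and GSTK1 was in all T24R2 libraries. These shares are of counts and not of molecules, since they are not divided by length, and they are given without a test.

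**Figure D4:**
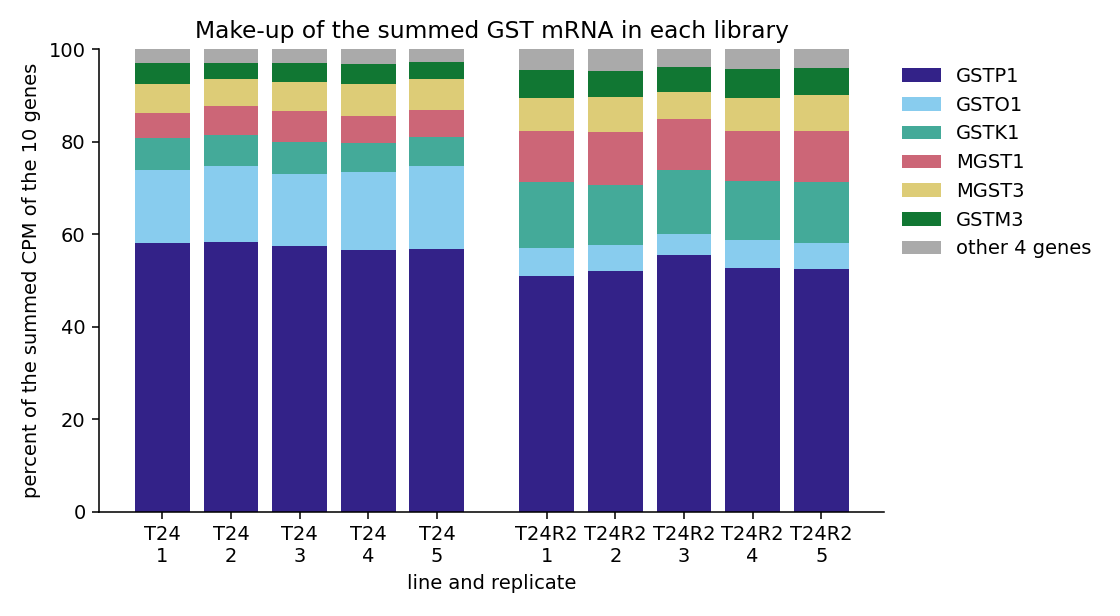
The percent of the summed CPM of the 10 GST genes that each gene gave in each library, as stacked bars by line and replicate. GSTP1 takes more than any other gene in every library (51.07% to 58.39%), the GSTO1 band is narrower in all 5 T24R2 libraries (4.44% to 6.076%) than in T24 (15.45% to 18.0%), and the bands of GSTK1 and MGST1 are wider.

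Among 18 other GST and MAPEG genes, 17 have a row in the tables used here, 12 had a count, and 8 were tested. GSTT1 was not analysed here. Of the 8, 3 were higher in T24R2 (GSTM1, GSTT2B and GDAP1), 2 were lower (GSTO2 and PTGES), and 3 were not called, with a median log2 fold change of 0.32. Of all tested genes, 24.9% were higher and 26.5% lower. GSTCD, a protein with a GST-like domain, had the highest mean CPM of these, not divided by length (21.39 ± 2.957 and 26.44 ± 2.167 CPM, log2 fold change 0.30, not called). MGST2, the third membrane GST, was at 18.9 ± 2.527 CPM in T24 and 19.04 ± 0.8362 CPM in T24R2 (log2 fold change 0.012, 95% interval -0.187 to 0.211). GDAP1, a GST-like protein of the outer mitochondrial membrane, rose from 3.602 ± 1.019 to 22.16 ± 1.003 CPM (log2 fold change 2.62, edgeR adjusted p = 7.5e-20). PTGES, a MAPEG enzyme that makes prostaglandin E and was named after its values were seen, fell from 17.24 ± 3.065 CPM to 1 to 10 counts per T24R2 library (log2 fold change -5.81, edgeR adjusted p = 8.3e-22). GSTT2 and GSTT2B are near-identical copies, and their split is uncertain.

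The list named glutathione supply also holds peroxidases and enzymes that degrade glutathione, so its counts are not of supply alone. All 15 of its genes were tested, and 7 were higher, 3 lower and 5 not called, with a median log2 fold change of 0.40. Of all tested genes, 24.9% were higher and 26.5% lower. SLC7A11 and SLC3A2, the subunits of the cystine importer, both rose, from 57.81 ± 5.786 to 480.7 ± 31.44 CPM (log2 fold change 3.06, edgeR adjusted p = 3.7e-35) and from 254.6 ± 4.932 to 503.8 ± 26.15 CPM (0.98, edgeR adjusted p = 1.1e-22). The other 5 that rose were GCLC and GCLM, the subunits of glutamate-cysteine ligase, CTH and CBS of the transsulfuration route, and CHAC1, which degrades glutathione. GPX4, the peroxidase of lipid hydroperoxides, fell from 213.2 ± 16.53 to 148.7 ± 14.89 CPM (log2 fold change -0.52, edgeR adjusted p = 8.7e-11), and GPX1 was not called (212.4 ± 4.271 and 232.8 ± 13.08 CPM, log2 fold change 0.13). GPX4 lay at the minimum of 0.5 and lost its call under 7 of 20 alternatives. These were the runs without T24 replicate 1 (-0.494) or 4 (-0.497) or without T24R2 replicate 2 or 4 (-0.486 each), scaling by library size alone (-0.358) or by upper quartile (-0.447), and a filter on a mean of 100 counts (-0.491). GSS, which completes glutathione, and OPLAH, which recycles oxoproline, were the other genes that fell, and OPLAH had 0 counts in every T24R2 library.

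Of 20 genes for the export of conjugates and their trimming to mercapturates, 11 were tested, and 3 were higher, 2 lower and 6 not called, with a median log2 fold change of 0.039. The 5 called of 11 lie near the 51.4% called among all tested genes. ABCC3, an exporter of organic anions and conjugates, rose from 61.2 ± 6.413 to 153.2 ± 5.133 CPM (log2 fold change 1.32, edgeR adjusted p = 5.8e-23). ABCC1, the best-known exporter of glutathione conjugates, was at 92.17 ± 4.563 CPM in T24 and 94.67 ± 3.051 CPM in T24R2 (log2 fold change 0.039, 95% interval -0.064 to 0.142). CNDP2, a dipeptidase that splits cysteinylglycine (75.95 ± 3.212 and 96.31 ± 5.306 CPM, log2 fold change 0.34), was not called, though it passed the minimum when counts were scaled by library size alone (0.505). ABCC2 and ABCC5 were the other genes that rose, ABCG2 and GGT7 fell, and the dipeptidase genes DPEP1 and DPEP3 had 0 counts in all libraries.

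**Figure D5:**
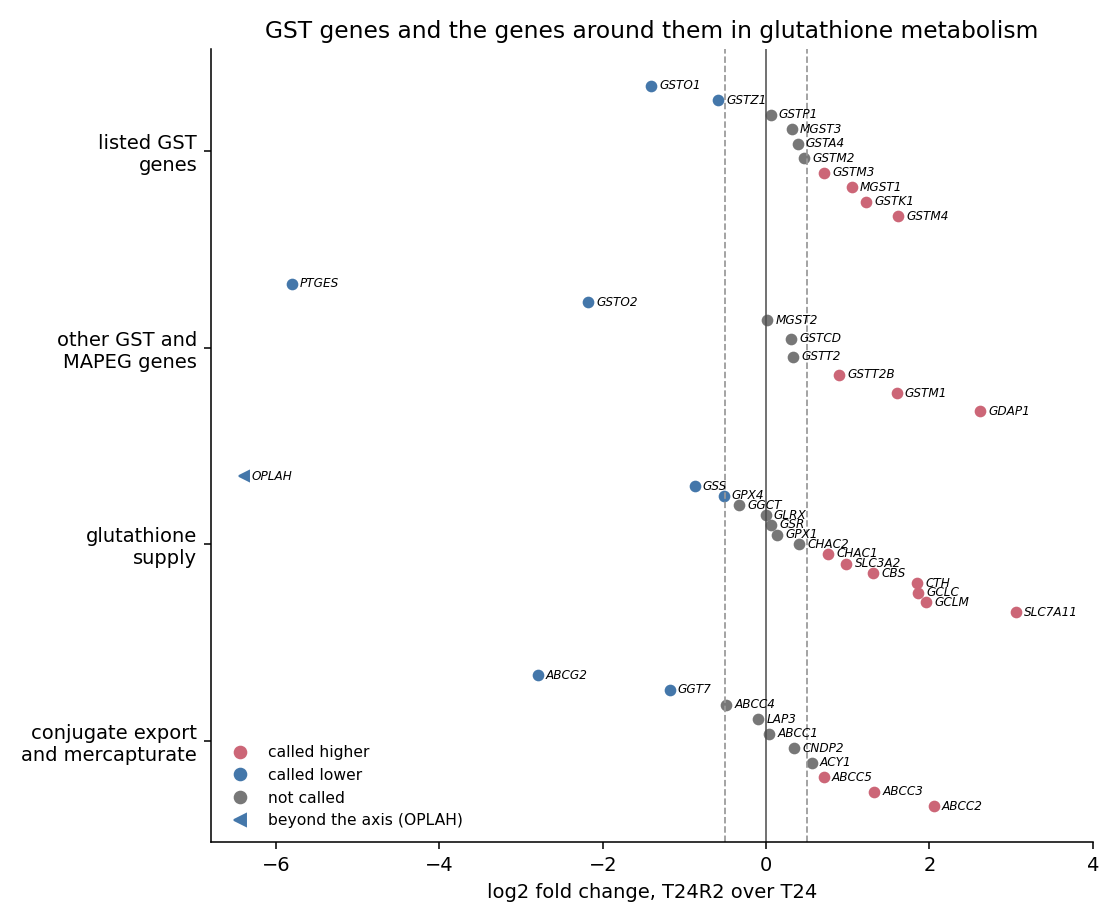
The log2 fold change, T24R2 over T24, of the 10 GST genes and of the tested genes of 3 lists around them (8 other GST and MAPEG genes, 15 of glutathione supply, 10 of the 11 of conjugate export and mercapturate formation), coloured by call. Genes lie on both sides of 0 in every list, and OPLAH, with 0 counts in T24R2, is drawn as an arrow at the left edge.

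The closest tested genes on both sides of the 10 GST genes gave 20 neighbours, whose log2 fold changes ran from -2.36 to 4.97. Beside the 6 called GST genes, 5 of 12 neighbours were called in the same direction, 1 in the other, and 6 were not called. The shares over all tested genes were 24.9% called higher and 26.5% called lower, or 51.4% in either direction. These 12 include the GST genes GSTO2, GSTM1 and GSTM2 and the gene that overlaps GSTM3, so they are not independent of the family.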

How the data were processed

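RNA-seq libraries of T24 and T24R2 (5 replicates each, grouped by their titles) were used. The authors mapped reads to hg38 in STAR 2.7.0 and retained unique, non-duplicate alignments in samtools 1.10. They then counted fragments in featureCounts 2.0.1 against GENCODE release 39 under strand option 1. Values were deposited as raw counts of fragments for each gene, not normalized and not pooled. The kit is not described as strand-specific in the sources used here, so fragments of a gene and of an opposite-strand gene may not be told apart. Removal of duplicates can lower the counts of abundant genes such as GSTP1. Of 61533 genes, 61369 matched a symbol by Ensembl identifier, and 0 rows lacked an identifier. The depth was 9257843 to 10840954 counts per library, and floors (3 counts) cover counting error only. The intervals rest on standard errors computed here from the log2 fold change and F statistic of edgeR's test. These standard errors also include the spread between these libraries, and that spread may be technical.

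Here the counts were fitted in R 4.3.3 with edgeR 4.0.16 (filterByExpr, TMM factors from 0.936 to 0.951 for T24 and from 1.04 to 1.07 for T24R2, glmQLFit and glmQLFTest, Benjamini-Hochberg over 16181 genes). CPM is the count divided by the TMM-scaled total of the tested genes. DESeq2 1.42.0, which the study's methods used with shrinkage, was an alternative. Limma 3.58.1 gave the limma-voom alternative. Single genes and ratios were compared by exact two-sided permutation tests, whose smallest p with 5 against 5 is 0.00794. SciPy 1.17.1 adjusted the p-values of the ratios and gave the t quantiles of the intervals. Exon overlaps used bedtools 2.31.1, and alignments Biopython 1.88, with numpy 2.4.6, pandas 2.3.3 and matplotlib 3.10.9 under Python 3.11.15. Promoter sequences came from RefSeq (GRCh38.p14) and transcripts from GENCODE release 44.

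The 10 GST genes, the lists around them and the tests were chosen with earlier results of these data known. Values are given for the 10 genes, for the 4 members of each list with the largest mean CPM, and for genes overlapping a GST gene on the opposite strand, while neighbours are given as counts and a range. The results of some genes that this rule and the marker lists cover are not reported here. GSTO2, PTGES, GSTT2 and GSTT2B, the other members named as called or at 0, and the 5 ratios were picked after their values were seen. Likeness of pattern between genes was not computed, because the libraries form 2 clusters, the lines. The steps were tested on simulated counts with 200 of 16181 genes changed in T24R2 against T24. The edgeR test called 84 of 91 genes changed by 1 on the log2 scale, 109 of 109 changed by 2, and 2 unchanged genes. DESeq2 with normal shrinkage called 45 of 91, 81 of 109 and 0 unchanged genes. In the data 51.4% of tested genes were called, so the simulation does not show how the steps behave with that many changes. Other scalings, tools, filters and thresholds, a replicate block and leaving out each library were tried as alternatives.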

Additional observations from a re-analysis of the deposited data

Results flagged for a closer look

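In 48 groups of 5 libraries examined for a single library far from the others, 3 passed Dixon's limit of 0.71, where chance gives about 2.4, or 1 in 20. GSTP1 in T24R2 replicate 3 stood at 540.5 CPM, against 458.6 to 482.0 CPM in the other T24R2 libraries. GSTM2 in T24R2 replicate 5 stood at 1.475 CPM, against 0.8638 to 1.009 CPM. GSTM4 in T24 replicate 5 stood at 6.372 CPM, against 8.712 to 9.653 CPM in the other T24 libraries. T24R2 replicate 3 also stood apart as a library. Its pairs with the other T24R2 libraries gave 3.98 to 6.51 chi-square units for each degree of freedom. Pairs among those other libraries gave 1.99 to 3.35. Mitochondrial genes held 2.969% of the counts in T24R2 replicate 3, against 2.351% to 2.581% in the other T24R2 libraries.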

How the results depend on the processing

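The direction of each of the 10 GST genes was the same under all alternatives run, and 4 of 10 were called higher under each of them except with no fold change minimum (5, MGST3 included) and with a minimum of 1 (3, without GSTM3). Scaling by library size alone moved the median log2 fold change of all tested genes from 0.015 to 0.177 and the calls to 5206 higher and 3431 lower, from 4027 and 4282. Under it 1 GST gene was called lower, the summed CPM ratio of the lines was 1.265, and GSTP1 stood at 0.217 with an edgeR adjusted p of 2.4e-05, still under the minimum of 0.5. GSTZ1 then stood at -0.424. Leaving out each library in turn gave 1 to 2 GST genes called lower, with 1 without T24R2 replicate 5. A minimum of 1 on the log2 scale left 1 GST gene lower, 1 supply gene lower, and 1918 higher and 2293 lower of all genes. With no minimum, 6128 genes were higher, and 4 export genes were lower. A stricter filter, on a mean of 100 counts, gave 2350 higher and 2641 lower of all genes, 0 other GST and MAPEG genes lower and 1 export gene lower, since fewer genes were tested. With no count filter, 5 export genes were higher. The sum of the mu genes, in place of GSTM2, GSTM3 or GSTM4 alone, had a log2 fold change of 1.075. Without division by length, 6 of 10 genes in T24 and 4 of 10 in T24R2 kept their place in the order, and by canonical transcript length, chosen after seeing the data, 4 and 2 did. Other causes of these changes were not tested.

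No pairing by replicate number was detected, since same-numbered libraries deviated with correlations of -0.02 to 0.021 and 1 of 5 correlated best with its own number. Whether same-numbered libraries were prepared together cannot be told from this. With the replicate block, 3979 genes were called higher and 4261 lower, and the GST genes were 4 higher and 2 lower. Low counts limit GSTA4 and GSTM2.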
